A study of Mus musculus with 2 samples.

Results

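The ISG15 conjugation system is described here in nuclear RNA of mouse macrophages through 5 genes, chosen by symbol from 55536 genes measured: the modifier Isg15, the activating enzyme Uba7, the conjugating enzyme Ube2l6, the ligase Herc6 and the deconjugating protease Usp18. Bone marrow-derived macrophages, primary phagocytes grown from bone marrow, came from C57BL/6J mice. They received Lipid A, the TLR4-activating portion of bacterial lipopolysaccharide, at 100 ng/ml for 12 hours, spent 12 hours without it, and were given 100 ng/ml again for 20 minutes. Total RNA of the nuclear fraction, called nucleoplasmic in the sample description, was depleted of ribosomal RNA and sequenced in 2 libraries, labelled biological replicates 1 and 2. The libraries form 1 group with no untreated or unfractionated reference, so the data give levels, transcript shares and the difference between the libraries, with no test. Both carry the same donor label, sex and age were not collected, and no source used here says if separate animals were used, so the spread between them may be partly technical. Replicate 1 was made from 1 µg of RNA and replicate 2 from 500 ng, and input and replicate cannot be told apart.

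ISG15 is a small protein made of a pair of ubiquitin-like domains. Like ubiquitin, it is attached to other proteins through a chain of enzymes: UBA7 activates it, UBE2L6 carries it, and in mice HERC6 is the main ligase that passes it on to target proteins. USP18 removes ISG15 from its targets and also binds the type I interferon receptor, where it restrains signalling. All of these genes are known as interferon-stimulated genes, and macrophages exposed to Lipid A are a known source of type I interferon.

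The interferon-stimulated response element is the promoter sequence through which the interferon-activated factor ISGF3 acts on such genes. The 250 bases before the RefSeq start site (assembly GRCm38.p6) were available for 4 of the 5 genes, Isg15, Uba7, Ube2l6 and Herc6. They were searched on both strands for the element, written GAAANNGAAA, and for the shorter core AANNGAAA bound by interferon regulatory factors, which is contained in every match of the first. Isg15 held 3 overlapping matches of the full element in a row, from 78 to 57 bases before its start, and its last 120 bases before the start (chr4:156200819-156200938, minus strand) are shown because they carry all 3, with the matched bases in capitals.
Isg15 promoter: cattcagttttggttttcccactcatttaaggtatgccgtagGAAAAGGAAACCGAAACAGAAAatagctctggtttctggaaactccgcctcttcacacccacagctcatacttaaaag
The full element was present in a window of 3.46% of the 27025 genes in the promoter table and of 8 of the 20 other interferon-stimulated genes with an entry. Uba7 held no full element and 1 match of the shorter core, from 27 to 20 bases before its RefSeq start, which lies inside a first exon of the gene in the GENCODE M21 annotation. The core, counted with or without the full element, was present in a window of 23.9% of all genes and of 14 of the 20 other interferon-stimulated genes. Neither letter string was in the 250 bases searched for Ube2l6 and Herc6.

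Levels are given as TPM, the authors' estimate of transcript abundance, corrected for transcript length and scaled to a common total. Comparisons between genes rest on this correction, and short annotated transcripts can add much TPM from few reads. The transcript Uba7-212, of 503 bases, gave 67.6 of the 241 TPM of Uba7 in replicate 1, from 588 of its 11891 expected counts. A TPM is a share of the RNA sequenced, so less RNA of a gene per cell and fewer cells that make it cannot be told apart. The tables held 21954179 expected counts in genes in replicate 1 and 17739520 in replicate 2. All 5 genes were far above the limit of 3 counts that a count of 0 allows, which is 0.137 and 0.169 CPM (counts scaled to an equal total) in replicates 1 and 2, and all passed the minimum mean of 1 TPM that 12952 genes reached. Intervals on counts cover counting error only. Macrophage markers were present in both libraries, from 60.5 TPM for Itgam to 1411 TPM for Lyz2 as means of the 2 libraries. The markers of neutrophils, dendritic cells, lymphoid cells and stromal or endothelial cells summed to at most 3.20 TPM per list in either library, and the defining markers Ly6g, Cd3e, Nkg7 and Dcn had 0 counts in both. Mitochondrial genes made up 3.34% of TPM in replicate 1 and 9.02% in replicate 2.

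Isg15 (ENSMUSG00000035692.6, mm10 chr4:156199424-156200818, minus strand) encodes the modifier itself in 2 exons. It had 273 TPM in replicate 1, against 86.8 TPM in replicate 2, a mean of 180 ± 132 TPM (SD, n = 2). These values rested on 4447 and 956 expected counts, or 203 CPM (95% Wilson interval 197 to 209) and 53.9 CPM (50.6 to 57.4). Isg15 stood at rank 91 among protein-coding genes in replicate 1 and at rank 449 in replicate 2.

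The other modifiers showed where this level lies among related genes. Ubb, a polyubiquitin gene, had 75.4 and 66.5 TPM in replicates 1 and 2, and Rps27a, which encodes ubiquitin fused to a ribosomal protein, had 64.3 and 57.9 TPM. Isg15 was above all 14 other ubiquitin-like modifier genes in replicate 1, and below 2 of them in replicate 2. Fau, one of these 2 and a ubiquitin-like protein fused to a ribosomal protein, had 79.9 and 98.3 TPM. The ratio of Isg15 to Ubb was 3.63 in replicate 1 and 1.31 in replicate 2, so its place among the modifiers differed between the libraries.

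Uba7 (ENSMUSG00000032596.14, chr9:107975505-107984060, plus strand), the enzyme that activates ISG15, had 241 TPM in replicate 1, against 158 TPM in replicate 2, a mean of 199 ± 58.3 TPM (SD, n = 2), the highest mean of the 5. The counts were 11891 and 5157. It exceeded all 9 other activating enzyme genes in both libraries. Uba1, which activates ubiquitin for most of the cell, had 25.4 and 22.9 TPM, and Uba6, which activates ubiquitin and FAT10, had 3.15 and 7.08 TPM. Over all its annotated transcripts Uba7 was thus 9.495 times Uba1 in replicate 1 and 6.90 times in replicate 2. Its only protein-coding transcript held 16.2 and 15.0 TPM of the Uba7 level. Atg7 of the autophagy conjugation pathway had 17.4 and 29.4 TPM.

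Ube2l6 (ENSMUSG00000027078.14, chr2:84798828-84810335, plus strand), which accepts ISG15 from UBA7, was the lowest of the 5. It had 46.7 TPM in replicate 1, against 54.4 TPM in replicate 2, a mean of 50.5 ± 5.45 TPM (SD, n = 2), from 1783 and 1484 counts. Among 33 other conjugating enzyme genes 2 were higher in replicate 1 and 4 in replicate 2. The highest were Ube2d3, which serves many ubiquitin ligases, with 76.5 and 101 TPM, and Birc6, a giant protein with a conjugating domain, with 52.3 and 101 TPM. Ube2l3, the closest relative of Ube2l6 and a carrier of ubiquitin, had 13.1 and 16.9 TPM. Ube2l6 was 3.56 times Ube2l3 in replicate 1 and 3.22 times in replicate 2.

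Herc6 (ENSMUSG00000029798.11, chr6:57581000-57664632, plus strand), the ligase, had the most reads of the 5. Its TPM was the steadiest of the 5 here, but not its CPM or its level in the other transcript table, given below. Herc6 had 162 TPM in replicate 1, against 159 TPM in replicate 2, a mean of 161 ± 2.30 TPM (SD, n = 2), from 16713 and 12383 counts. It was above all 4 other HERC genes in both libraries. Of the giant HERC genes, Herc1 had 48.0 and 71.1 TPM and Herc2 had 17.3 and 26.3 TPM. Of the other small HERC genes, Herc4 had 26.6 and 50.6 TPM and Herc3 had 5.60 and 5.44 TPM, which put Herc6 29.0 and 29.2 times above Herc3. Of 2 other ligases linked to ISG15 in human cells, Trim25, also a cofactor of the RNA sensor RIG-I, had 87.0 and 110 TPM. Arih1, which works with UBE2L3-type carriers, had 20.2 and 30.3 TPM.

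Usp18 (ENSMUSG00000030107.10, chr6:121245906-121270917, plus strand), which takes ISG15 off its targets, had 94.7 TPM in replicate 1, against 58.5 TPM in replicate 2, a mean of 76.6 ± 25.6 TPM (SD, n = 2), from 3808 and 1589 counts. It was above all 43 other USP genes in replicate 1 and below 1 of them in replicate 2. The 3 highest of those were Usp48, with 42.0 and 76.0 TPM, Usp15, with 46.0 and 55.9 TPM, and Usp25, with 49.1 and 47.5 TPM. All 3 encode ubiquitin-removing enzymes.

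**Figure D1:**
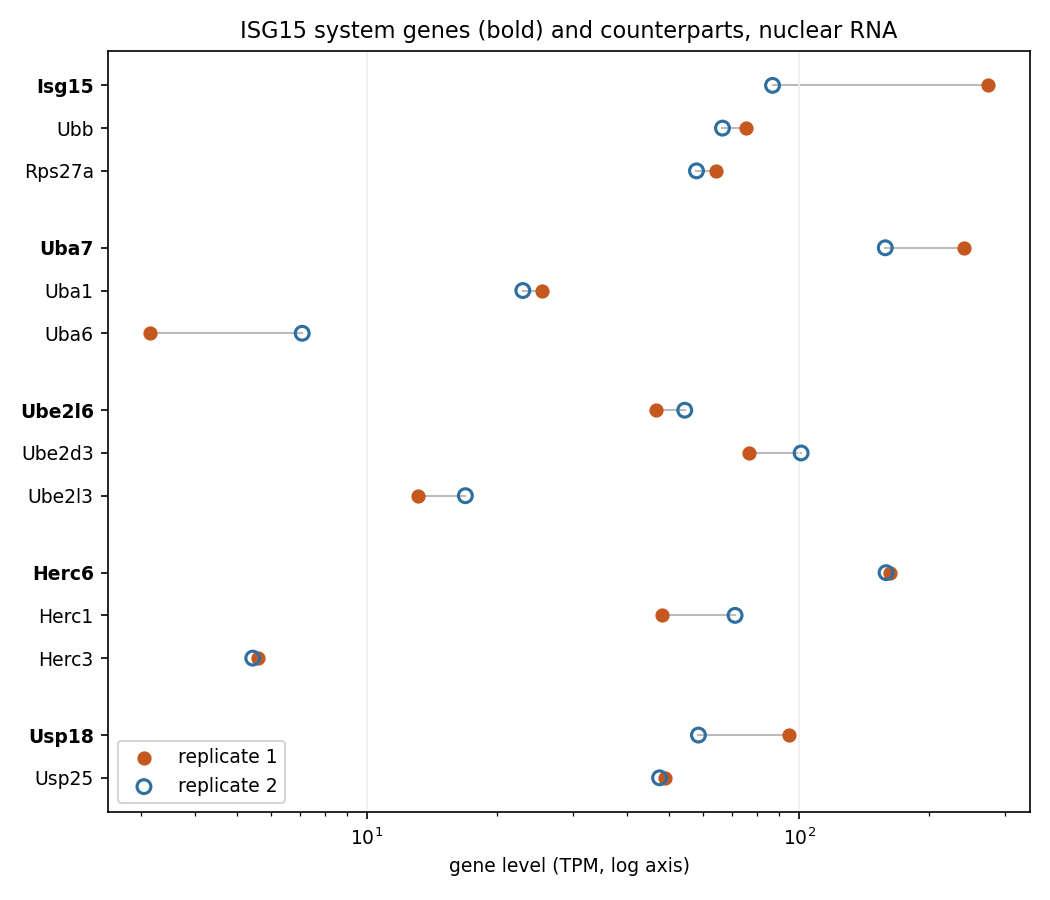
Gene levels in TPM on a log axis for the 5 ISG15 system genes (bold) and counterparts from the same enzyme class, with filled points for replicate 1 and open points for replicate 2. Uba7 (241 and 158 TPM) and Herc6 (162 and 159 TPM) stand well to the right of their counterparts in both libraries, and Isg15 shows the widest gap between libraries (273 and 86.8 TPM).

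By mean TPM the order was Uba7, Isg15, Herc6, Usp18 and Ube2l6, but the first 3 could not be separated. Isg15 was highest in replicate 1 (273 TPM) and below 2 others in replicate 2 (86.8 TPM), Herc6 at 159 TPM and Uba7 at 158 TPM. The gaps of 19.4 TPM between Uba7 and Isg15 and of 19.5 TPM between Isg15 and Herc6 were below the SD of Isg15. Herc6 was above Usp18 and Usp18 above Ube2l6 in both libraries, with ranges that did not overlap, although the gap of 26.1 TPM between the last pair was close to the SD of Usp18. The 5 genes lay within 5.86-fold of each other in replicate 1 and within 2.92-fold in replicate 2. Their median of mean TPM was 161, against 8.91 over the 10050 protein-coding genes that reached a mean of 1 TPM, and 150 over 27 other interferon-stimulated genes. Against those genes the order of the medians differed by library, with 162 against 154 TPM in replicate 1 and 86.8 against 148 TPM in replicate 2. All these gene levels cover transcripts of every annotated class. In protein-coding transcripts alone Uba7 was the lowest of the 5 in both libraries, with 16.2 and 15.0 TPM. Ube2l6 had 43.5 and 53.9 TPM in such transcripts.

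In the authors' other transcript table the levels summed to genes were lower and ordered partly differently. Isg15 had 66.6 and 58.7 TPM there, Uba7 had 56.8 and 109 TPM, and Herc6 had 54.5 and 103 TPM. Usp18 had 29.3 and 43.5 TPM and Ube2l6 had 15.4 and 31.4 TPM. Uba7 was again the highest by mean and Ube2l6 the lowest, whereas Herc6 stood above Isg15.

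The difference between the libraries was taken as log2 of TPM + 1 in replicate 1 over TPM + 1 in replicate 2, minus its median over the 12952 genes, which was -0.29. It describes this pair of libraries, and understates the fold of low genes. Isg15 was 1.93 above the median gene on this log2 scale, a place that 98.7% of the genes were below. Usp18 followed with 0.97 and Uba7 with 0.89, just under the limit of 1 used for naming a difference. Herc6 was at 0.32 and Ube2l6 at 0.07. Over 1 was thus 1 of the 5 genes, where 4.51% of all 12952 genes were, none was under -1, where 2.78% of all genes were, and the median of the 5 was 0.89 where that of all genes is 0 by construction.

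In CPM, with an exact interval for counting error only, Isg15 was 3.76 times higher in replicate 1 than in replicate 2 (3.50 to 4.03). Usp18 was 1.94 times higher (1.83 to 2.05), Uba7 1.86 times (1.80 to 1.93) and Herc6 1.09 times (1.07 to 1.12). Ube2l6 was at 0.971 times, with an interval of 0.906 to 1.04 that includes equality. Isg15 was higher in replicate 1 under every scaling tried. In the other transcript table its raw TPM differed little, 66.6 against 58.7, and it stood 1.46 above the median gene, while the raw TPM of the other 4 genes was lower in replicate 1 than in replicate 2. Uba7 and Usp18 passed 1 with TMM-scaled CPM, at 1.03 and 1.08, and Usp18 also with a pseudocount of 0.1, at 1.04. The sign of Ube2l6 changed with the scaling, to -0.22 with no centring, -0.10 with no filter on low values and -0.03 with a pseudocount of 5.

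The genes around the ISG15 system show which differences it shares. Of the 27 other interferon-stimulated genes, 8 were over 1 and 25 were above the median gene, with a median of 0.56. The 5 with the widest differences were Isg20, an antiviral exonuclease, at 1.87, the chemokine Cxcl10 at 1.66, the kinase Cmpk2 at 1.59, the membrane tether Bst2 at 1.55 and the transcription factor Irf7 at 1.39. The 3 most abundant were Rsad2, the antiviral enzyme viperin, with 1228 and 667 TPM, Ifit2, which binds viral RNA, with 828 and 800 TPM, and Mx1, an antiviral GTPase, with 918 and 489 TPM. Isg15 at 1.93 was above all 27. None of the other ubiquitin-like modifier, activating, conjugating, HERC or USP genes was beyond 1 in either direction, and the medians of these 5 lists lay between -0.28 and 0.15. Of 8 macrophage markers, Fcgr1, a high-affinity receptor for antibodies, was at 1.04 and the other 7 were between -1 and 1. RNA input, depth and the mitochondrial share differed between the same libraries, and their part in these differences was not tested.

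**Figure D2:**
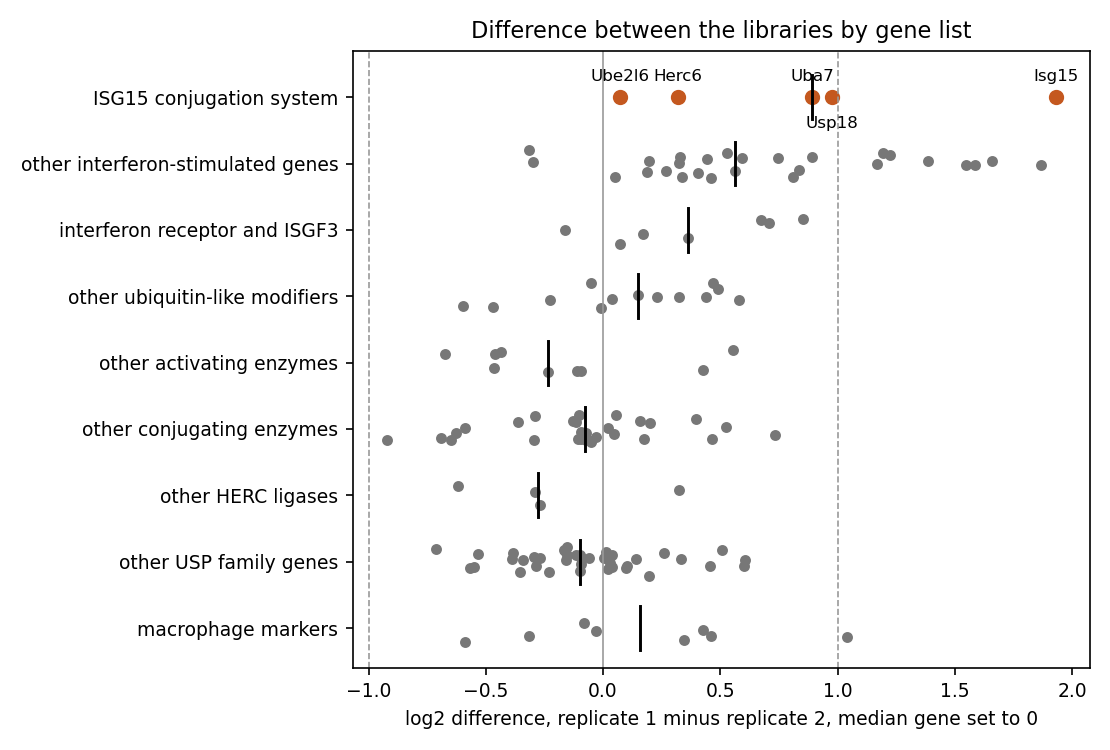
Difference between the libraries in log2 TPM + 1, replicate 1 minus replicate 2 with the median gene set to 0, for each gene with a mean of at least 1 TPM in 9 lists. Points are genes, black lines list medians and dashed lines the limits of 1 and -1; Isg15 lies at 1.93, and the interferon-stimulated genes reach further right than the ubiquitin pathway lists.

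Upstream of the system, the receptor and signalling genes of type I interferon were all measured well above 1 TPM. Stat2, a subunit of ISGF3, had 275 TPM in replicate 1, against 210 TPM in replicate 2. Irf9, its DNA-binding partner, had 31.6 and 30.0 TPM, so these subunits differed widely in level. The receptor chain Ifnar1 had 54.4 and 63.3 TPM, and Ifnar2, the chain that USP18 is known to bind, had 42.2 and 58.1 TPM. None of the 7 genes of this list was beyond 1 in the difference between libraries, with values from -0.16 to 0.85.

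Downstream, 14 genes whose proteins are reported targets of ISG15 all reached 1 TPM, with a median of 34.9. Mx1 was the highest, and Ifit1 had 165 and 148 TPM. Over 1 were 2 of the 14, among them Mx1 at 1.20. Extracellular ISG15 is reported to act through the integrin LFA-1. Its subunit Itgal had 43.6 and 20.7 TPM, a difference of 1.33, and Itgb2 had 132 and 120 TPM, a difference of 0.42.

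By the distance of log2 TPM + 1 over the 2 libraries, among 9842 protein-coding genes with at least 100 expected counts in all, the genes nearest to Isg15 were the chemokine Ccl4, with 248 and 93.6 TPM, and Bst2, with 261 and 108 TPM. Nearest to Uba7 were Hspa8, a constitutive heat shock protein, and Hk3, a hexokinase. Ube2l6 was nearest to 2610507B11Rik and Usp15, Herc6 to Acp2 and Wsb1, and Usp18 to Sp140 and Tnfrsf14. With 2 libraries many genes fall close together, and the largest of these distances was 0.33, for Bst2.

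The transcript tables split each gene over its annotated transcripts, given as the percent of the gene's TPM. For Isg15 the annotation holds 1 transcript, Isg15-201, which took all reads. Ube2l6 and Usp18 were also mostly protein coding. Protein-coding transcripts took 93.3% of Ube2l6 in replicate 1 and 99.2% in replicate 2, and 86.6% and 85.8% of Usp18. Ube2l6-201 alone held 92.7% and 99.2%, and Usp18-201 held 81.5% and 80.7%. The Usp18 remainder was spread over a further coding transcript, Usp18-203, with 5.08% and 5.10%, and 2 transcripts classed as retained intron, Usp18-204 with 8.45% and 6.91% and Usp18-202 with 5% and 7.24%. For Ube2l6 the retained-intron transcript Ube2l6-204 had 5.83% and 0.83%. The other transcript table put less on the main transcripts, with 65.8% and 92.8% for Ube2l6-201 and 71.8% and 66.8% for Usp18-201. Protein-coding transcripts together took 83.5% and 97.3% of Ube2l6 there, and 82.2% and 81.4% of Usp18.

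**Figure D3:**
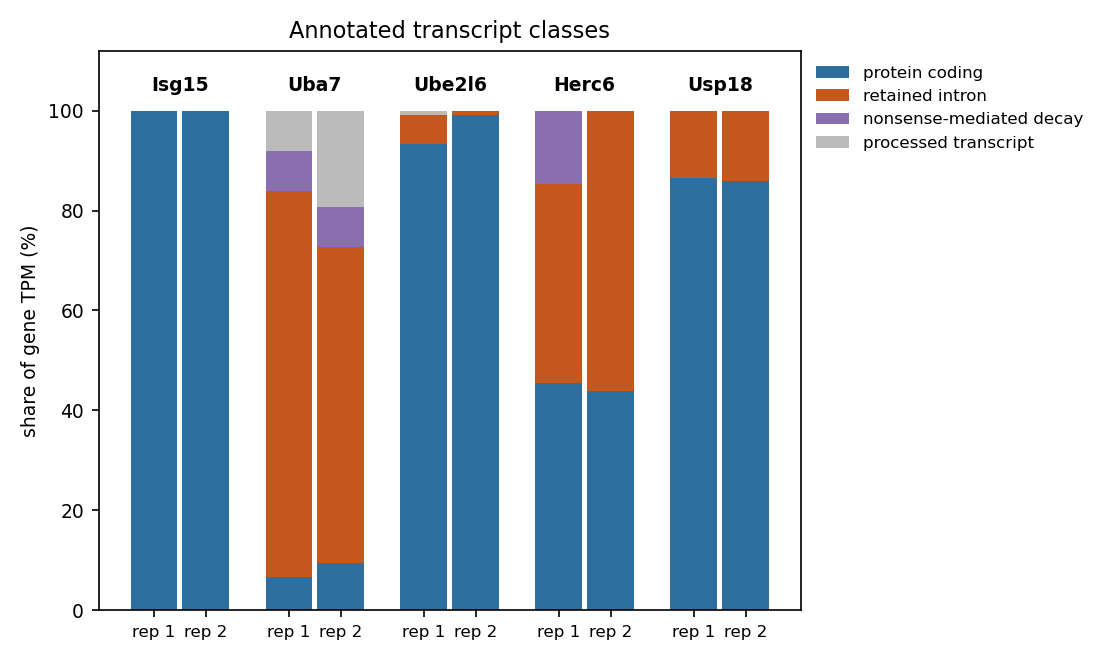
Share of each gene's TPM, in percent, in protein-coding, retained-intron, nonsense-mediated decay and processed transcripts, with replicate 1 left of replicate 2. Uba7 is mostly retained intron (77.3% and 63.3%), Herc6 is split between coding and retained intron, and the other 3 genes are over 85% coding in both libraries. In the other transcript table, not drawn, the coding share was 83.5% and 97.3% for Ube2l6 and 82.2% and 81.4% for Usp18.

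Uba7 differed from this. Its only protein-coding transcript, Uba7-201, took 6.74% of gene TPM in replicate 1 and 9.46% in replicate 2. The 10 transcripts classed as retained intron took 77.3% and 63.3%, those marked for nonsense-mediated decay 7.86% and 8.01%, and the processed transcripts without a reading frame 8.11% and 19.3%. Counted in reads instead of TPM, which gives short transcripts less weight, Uba7-201 held 12.2% and 17.7% and retained-intron transcripts 71.8% and 64.1%. The mean coding share of 8.10% was undercut by 113 of 10034 protein-coding genes, whose median was 76.1%. A mean coding share of TPM under 50% was found for 20.9% of these genes, and for 2 of the 5 members, Uba7 and Herc6. Counted in reads, the coding share of Herc6 was 60.0% and 52.4% in replicates 1 and 2, so Herc6 was under 50% in TPM only. In the annotation Uba7 has 15 transcripts, 10 of them retained intron, and 28 of these genes have more of that class; the part of this number in the share was not tested.

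**Figure D4:**
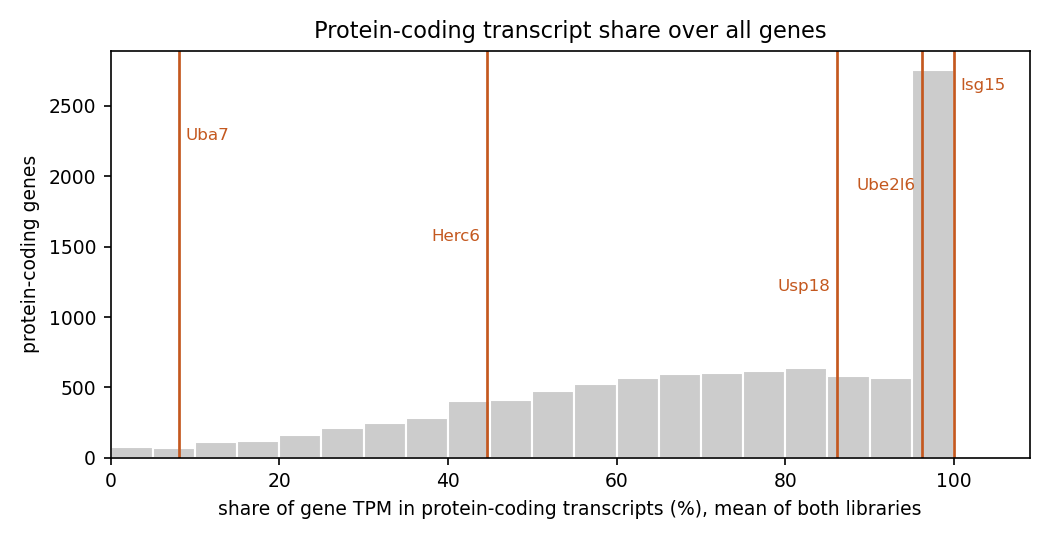
Number of protein-coding genes by the share of their TPM in protein-coding transcripts, in bins of 5 percent, as a mean of both libraries. Lines mark the 5 members, with Uba7 at 8.10% in the left tail, Herc6 at 44.6%, and Usp18, Ube2l6 and Isg15 at 86.2% and above.

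Uba7-201 has 24 exons and 23 introns with a median length of 100 bases, and 19 of the introns are 300 bases or shorter. Against it, 10 of the 23 introns are contained whole in at least 1 other annotated transcript, and the 8 transcripts that contain one took 54.7% of gene TPM in replicate 1 and 50.2% in replicate 2. Intron 8 (376 bases) is in Uba7-210, with 10.02% and 10.7%, and in Uba7-215, with 7.81% and 5.65%. Intron 15 (85 bases) is in Uba7-210, in Uba7-206, with 4.59% and 5.35%, and in Uba7-202, with 6.92% and 0.00%. Introns 17, 19 and 20 are in Uba7-207, with 8.81% and 13.8%, which also runs 1204 bases into intron 21. Intron 5 (103 bases) is in Uba7-203, with 9.01% and 6.29%, and intron 23 (453 bases) is in the nonsense-mediated decay transcript Uba7-214, with 6.40% and 6.62%. 3 of these introns, each from a different stretch of the gene and short enough to print, are shown because their presence sets such transcripts apart from Uba7-201, with the first and last pair of bases of the intron in capitals. They lie on the plus strand of chromosome 9 at chr9:107976801-107976903, chr9:107979459-107979543 and chr9:107981297-107981389.
Uba7 intron 5: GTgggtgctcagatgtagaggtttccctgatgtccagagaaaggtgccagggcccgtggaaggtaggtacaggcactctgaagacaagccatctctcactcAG
Uba7 intron 15: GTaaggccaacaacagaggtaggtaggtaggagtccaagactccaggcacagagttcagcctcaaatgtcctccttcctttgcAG
Uba7 intron 20: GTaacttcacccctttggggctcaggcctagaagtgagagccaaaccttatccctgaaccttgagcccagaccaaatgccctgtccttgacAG
All 3 begin with GT and end with AG, the usual ends of a spliced intron, as do the other 7, and the 3 are 55.3%, 51.8% and 53.8% G or C.

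The largest single share of Uba7 did not come from a whole intron. Uba7-212, a fragment of 503 bases with 3 exons at the end of the gene that takes in 72 bases of intron 21, had 28.1% in replicate 1 and 18.1% in replicate 2, but only 4.95% and 3.24% of the gene's counts. The division between the long transcripts was uncertain. Uba7-202 had 1509 expected counts with a posterior SD of 247 in replicate 1, and 0 with an SD of 68.1 in replicate 2. Uba7-201 had 1448 with an SD of 214 in replicate 1 and 913 with an SD of 102 in replicate 2. Uba7-207 was better fixed, with 1359 and 952 counts and an SD of 6.30 and 4.16, whereas the short Uba7-204 had 16.3 and 75.4 counts with an SD of 4.16 and 13.9. In the other transcript table the coding share of Uba7 was 6.14% and 4.19%, and the retained-intron share 73.2% and 65.4%. Reads from precursor RNA that is not yet spliced and from a stable transcript that keeps the intron cannot be told apart in these tables.

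**Figure D5:**
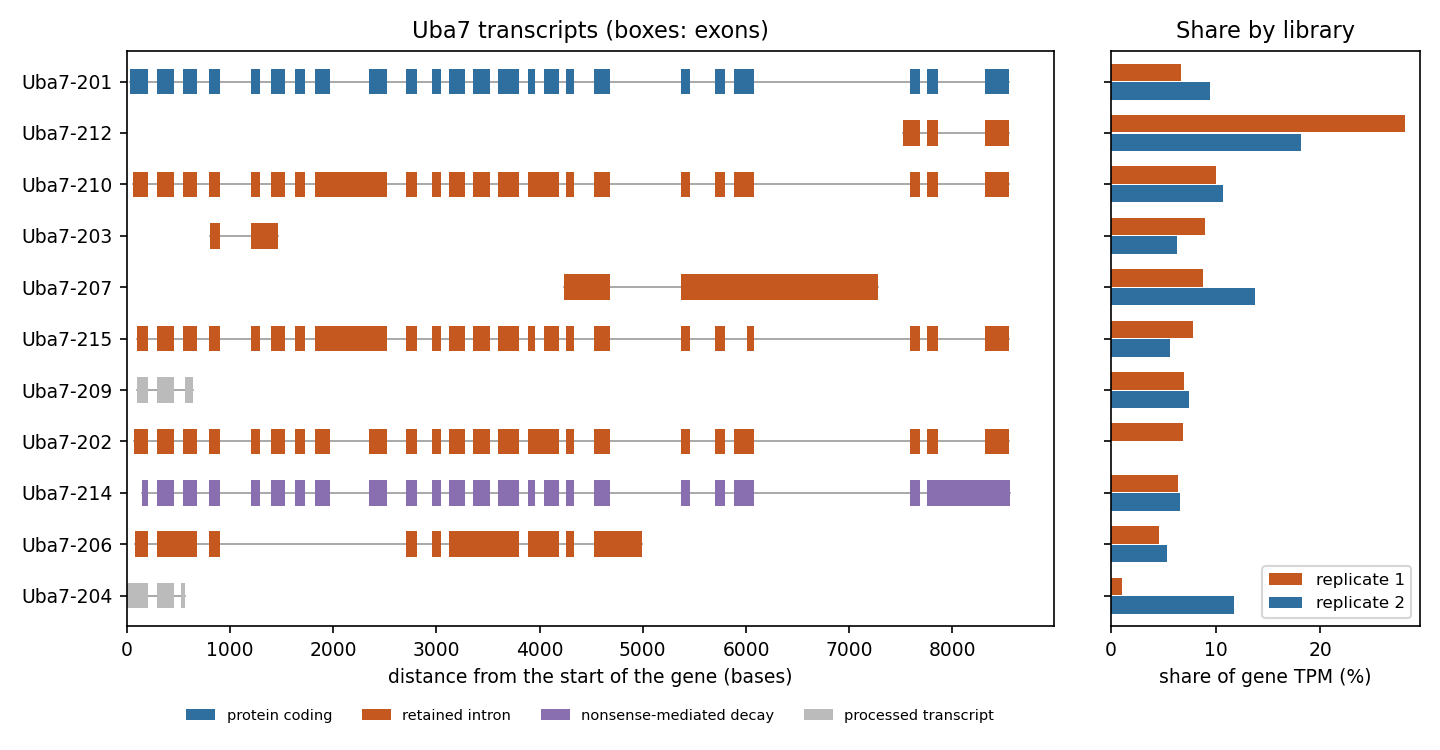
Left, exons (boxes) of the 11 Uba7 transcripts with at least 5% of gene TPM in either library, by distance in bases from the start of the gene and coloured by annotated class. Right, the share of each in replicate 1 above replicate 2; the coding Uba7-201 has 6.74% and 9.46%, the 3-exon fragment Uba7-212 has 28.1% and 18.1%.

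Herc6 was split more evenly. Its coding transcript Herc6-201, of 23 exons, took 45.4% of gene TPM in replicate 1 and 43.9% in replicate 2. Counted in reads, Herc6-201 held 60.0% and 52.4%, and retained-intron transcripts 39.0% and 47.6%. Herc6-202, a single exon of 4378 bases that holds introns 7 and 8 whole (455 and 3095 bases), took 31.0% and 41.9%. It rested on 6259 and 5675 expected counts with a posterior SD of 2.13 and 2.98. Herc6-203, a nonsense-mediated decay fragment of 449 bases, had 14.7% and 0.00% from 169 and 0 counts. Herc6-206, a retained-intron fragment, had 3.75% and 7.91%. In the other transcript table the coding share was 35.4% and 43.0%, and the retained-intron share 29.3% and 50.9%. Herc6-203 had 35.3% and 6.11% there. All retained-intron transcripts together took 39.9% of Herc6 in replicate 1 and 56.2% in replicate 2, a mean of 48.0%. Among 6243 protein-coding genes with an annotated transcript of that class the median share was 26.2%, and 1098 genes were above Herc6 and 238 above Uba7, at a mean of 70.3%.

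Genes on top of the members could share their reads, since the strand setting is not given. Gm19244, a processed pseudogene on the opposite strand inside Herc6, had 27 and 4 counts, and Gm45193, on the same strand, had 62 and 16. Gm20661 overlaps the end of Uba7 on the same strand and had 8 and 7 counts, and Gm44148, opposite Usp18, had 0 in both. Each is small beside the member's own counts. In sequence, AC151275.1, a processed pseudogene 95.2% identical to Isg15-201 over 482 bases, had 4 and 0 counts. Ube2l6-201 shares 498 bases at 90.6% identity with D10Wsu102e, which had 2183 and 2379 counts, so some Ube2l6 reads may be uncertain. The posterior SD of Ube2l6-201 was 7.44 on 1745 expected counts in replicate 1 and 1.89 on 1481 in replicate 2.

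The nearest neighbours of the members were mostly low. AW011738, 2486 bases from Isg15 and on the opposite strand, had 6.99 and 2.01 TPM, a difference of 1.70 on the log2 scale, close to that of Isg15. On the other side, Agrn, which encodes the matrix protein agrin, had 15.1 and 11.8 TPM, a difference of 0.62. Inka1, 163 bases from Uba7 and on the opposite strand, had 6.33 and 3.74 TPM, a difference of 0.92. The neighbours of Ube2l6 (Serping1 and Smtnl1) and of Usp18 (Tuba8 and Slc6a13) were all below a mean of 0.5 TPM, as were Gm27896 beside Herc6 and, overlapping Uba7, Gm20661. Traip, before Uba7, had 0.42 and 1.74 TPM, and Gm37397, after Herc6, had 0.23 and 1.18 TPM.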

How the data were processed

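Nuclear total RNA of 2 libraries in 1 group was analysed. Per the file headers, the authors' gene and transcript tables give expected counts (estimated reads, not normalised) with TPM, and for each transcript its isoform percent. Per the file headers, another deposited transcript table gives TPM beside estimated counts. Files deposited with the samples name the build mm10 and GENCODE M21. Column names follow RSEM and kallisto, but tool, version and strand were not given in the sources used here.

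Members, gene lists and rules were chosen with earlier results of these data known. All 5 members were named, and of each list the 3 highest genes, all genes of lists of up to 4, and up to 5 with a difference beyond 1. In isoforms, transcripts at 5% or more in either library were named. Some genes that this rule names are not reported here. Neighbours and copies were named by position or sequence. The tables also hold 26345 entries with no gene name (0.581% and 0.434% of counts), which were left out.

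Depth was 21954179 and 17739520 counts. A chi-square of 106 per degree of freedom over 12259 genes put the libraries apart beyond sampling noise. The difference was log2(TPM + 1) of replicate 1 minus replicate 2, centred on genes with a mean of at least 1 TPM. Its script was tested on simulated data with counting noise only, so that test does not cover the wider spread of these libraries. Promoters came from RefSeq (GRCm38.p6) and introns from GENCODE M21 transcripts. Similar transcripts were found with blastn (at least 90% identity over 100 bases). Alternatives changed the pseudocount, filter, centring, scaling, table and replicate. TMM used edgeR 4.0.16 in R 4.3.3 on rounded counts; the rest used Python 3.11.15 with pandas 2.3.3, numpy 2.4.6, scipy 1.17.1 and matplotlib 3.10.9.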

Additional observations from a re-analysis of the deposited data

How the results depend on the processing

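The median difference of the 5 genes between the libraries was 0.89 and stayed above 0 in every alternative run. It was 0.95 with a pseudocount of 0.1, 0.76 with a pseudocount of 5, 0.60 with no centring, 0.72 with no filter on low values, 1.03 with TMM-scaled CPM, 0.38 in the other transcript table, whose median gene lay at -1.28, and 0.84 after removal of the running trend on transcript length, an alternative chosen after seeing the data, as was the use of protein-coding genes alone. The number of the 5 genes over 1 was 1, but 2 with a pseudocount of 0.1 and 3 with TMM-scaled counts. The share of all genes over 1 is given here for the main setting only, at 4.51%. The counts of 2 and 3 therefore have no background beside them. The median level was 161 TPM. It was 62.6 TPM in the other transcript table, and 86.8 to 162 TPM when either replicate was left out. The median coding share was 86.2%, 81.8% in the other transcript table, and 85.8% to 86.6% when either replicate was left out. The causes were not tested. Of 50 single-gene differences under an alternative, 28 moved by more than their counting interval. No paired analysis was possible because there was 1 group. With 2 libraries and no control, no change with Lipid A can be read from these data.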
